A study of Mus musculus with 2 samples.

Results

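The histone cluster genes of mouse embryonic stem cells were described here from 2 single-cell RNA libraries. A gene was taken as a member if its symbol began with Hist1h, Hist2h, Hist3h or Hist4h and it had at least 20 unique molecular identifiers (UMIs, 1 per captured transcript end) over both libraries. Of 27998 genes in the count tables, 69 gene identifiers with 68 distinct symbols carried such a name, and 24 of them reached the minimum. The members were 5 H1, 7 H2A, 4 H2B, 4 H3 and 4 H4 genes. Just inside the minimum lay Hist2h2bb with 20 UMIs and Hist2h3c1 with 21, and just outside lay Hist2h2be with 19. Hist2h2bb stood in the tables under a second identifier as well, with 19 UMIs, which was left out. Of the 45 genes under the minimum, 8 had no UMI in either library.

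The first library came from cells given Idoxuridine, a thymidine analogue carrying iodine that cells put into DNA as they copy it, and the second from cells given DMSO, its solvent. The dose is 10 µM in the treatment label and 10 mM in a protocol field, and this conflict is not settled by the labels. Both groups were E14 cells, a male mouse line labelled C57BL/6, grown without feeders on gelatin in 2i/LIF medium and treated for 24 h. Each group was 1 library of 1 culture of 1 line, so the data hold no replicates, no test between the groups was possible, and every interval given is a 95% interval for counting error only.

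Histones are the proteins that DNA is wound around. H2A, H2B, H3 and H4 form the core particle, and H1, the linker histone, binds where DNA enters and leaves it. Most of the clustered genes are replication-dependent: they are switched on in S phase, when new DNA has to be packed, and their mRNAs end in a short stem-loop, bound by the protein SLBP, in place of a poly(A) tail. Library chemistry that primes on poly(A), as used here, therefore reads mainly those histone mRNAs that carry a tail, and counts of these genes are not a measure of all their mRNA. Replication-independent histones such as H2afz and H3f3b have ordinary poly(A) tails.

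The stem-loop was searched in the annotated transcripts (GENCODE M21, GRCm38) as GGCTCTTTTNAGAGCC or GGCCCTTTTNAGGGCC on the transcript strand. It was found in 18 of the 24 members and 40 of the 69 family identifiers, against 3 of 27578 other genes, 1 of which was H2afx. The 6 lines below show the loop variants with up to 9 bases after the stem, with the stem-loop in capitals, since the annotated ends of the members are described relative to it. The Hist1h2ap transcript is annotated to end 3 bases after the stem, at chr13:21833026-21833049 on the minus strand. The other windows are Hist1h1e at chr13:23621773-23621802 (minus), Hist4h4 at chr6:136803989-136804018 (minus), Hist1h4i at chr13:22040957-22040986 (minus), Hist1h3e at chr13:23561894-23561923 (minus) and Hist2h2ac at chr3:96220409-96220438 (minus).
Hist1h2ap: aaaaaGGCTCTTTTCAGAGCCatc
Hist1h1e: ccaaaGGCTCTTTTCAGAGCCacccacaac
Hist4h4: acaaaGGCCCTTTTCAGGGCCcacaaagca
Hist1h4i: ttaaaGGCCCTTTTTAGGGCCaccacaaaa
Hist1h3e: aaaacGGCTCTTTTAAGAGCCacctccatt
Hist2h2ac: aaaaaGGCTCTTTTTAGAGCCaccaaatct

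The variant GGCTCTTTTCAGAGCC was carried by 10 members, among them 4 H2A and 3 H1 genes. All 4 H4 members had the GGCC form of the stem, which no other member had. Annotated ends set the members apart in 3 ways. In 12 members the transcript ran on for at least 100 bases past the stem-loop, and 8 of these 12 held the poly(A) signal AATAAA in the stretch beyond it. In 6 members it ended within 100 bases, and in 6, Hist1h1b and Hist1h1a among them, the annotated transcript held no complete stem-loop. Annotation says where transcripts can end, not which ends were captured here.

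The members lie in few places. Of the 24, 16 are on chromosome 13 between 21753435 and 23764406, the large Hist1 cluster. Hist1h2al, annotated as a processed pseudogene, is also on chromosome 13 but far from it, at 51202727 to 51203065. A group of 5 is on chromosome 3, Hist3h2a is on chromosome 11 and Hist4h4 on chromosome 6. Near-identical copies limit what a count of 1 gene means. In Hist2h3c1 all 100-base stretches were shared with another gene, in Hist1h2ap 92.2% and in Hist2h2aa1 88.3%, against 0 in Hist1h1b, Hist1h1a, Hist1h4d and Hist2h4. Hist1h1e shared 24.7% of its stretches, including the whole of its last 300 bases, where Hist1h2be overlaps it on the same strand, so reads of these genes may be split or lost. All 7 H2A members and Hist2h2bb are overlapped by a gene on the other strand. Further overlaps on the same strand join Hist3h2a with Trim17, Hist2h2aa1 and Hist2h3c1 with Gm20634, and Hist2h2bb with Gm42743.

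RefSeq promoters, 300-base windows around the gene start on GRCm38.p6, were matched for 19 members. The 2 linker histone promoters below belong to the H1 members with the highest and the lowest ratio across cells ranked by S phase genes, as given further on. Capitals mark CCAAT and TATAAA, elements common in histone promoters, and AAACACA, an element known from H1 promoters, each on either strand. The Hist1h1b promoter spans chr13:21780576-21780875 (minus strand) and the Hist1h1c promoter chr13:23738557-23738856 (plus strand).
Hist1h1b: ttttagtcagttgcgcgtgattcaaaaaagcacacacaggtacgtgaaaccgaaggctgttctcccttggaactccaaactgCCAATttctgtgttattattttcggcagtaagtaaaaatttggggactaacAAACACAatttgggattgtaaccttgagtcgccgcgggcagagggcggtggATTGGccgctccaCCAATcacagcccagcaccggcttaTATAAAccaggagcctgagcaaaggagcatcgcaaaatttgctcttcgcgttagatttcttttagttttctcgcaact
Hist1h1c: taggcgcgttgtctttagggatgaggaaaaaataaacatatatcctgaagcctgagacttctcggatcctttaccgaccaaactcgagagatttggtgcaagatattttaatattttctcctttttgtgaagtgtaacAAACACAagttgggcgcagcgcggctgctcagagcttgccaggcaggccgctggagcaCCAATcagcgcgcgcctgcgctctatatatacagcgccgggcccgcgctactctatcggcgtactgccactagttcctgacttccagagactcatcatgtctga

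CCAAT was present in 17 of the 19 member promoters, against 37.4% of 32817 RefSeq promoters of this length. TATAAA was present in 10 of 19, against 13.6%, and AAACACA in 3 of 19, against 7.19%. Those 3 were Hist1h1b, Hist1h1e and Hist1h1c, 3 of the 4 H1 genes with a promoter in the table. The matches are letters in a window and were not tested as binding sites.

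The Idoxuridine library held 742 cells with a median of 37425 UMIs and 30454626 UMIs in all, and the DMSO library 811 cells with a median of 44502 and 40818344 in all. The libraries shared 2 cell barcodes. The pluripotency markers were detected in both, at a summed level of 4454 counts per 1000000 UMIs (CPM) in Idoxuridine and 6139 CPM in DMSO, with 3 of 8 (Sox2, Tdgf1 and Dppa5a) lower by the size rule given below. Fibroblast markers summed to 12.9 CPM in Idoxuridine and 1.54 CPM in DMSO, and ranged over single cells at fixed depth between 0 and 10 UMIs in Idoxuridine and between 0 and 2 in DMSO. Of these 9 markers, 1 (Postn) was at 0 in Idoxuridine and 3 (Postn, Col1a1 and Col3a1) in DMSO, and 5 of the 7 with enough UMIs were higher in Idoxuridine. The part of these markers in the histone values was not tested.

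The 24 members together took a small share of the RNA, 0.0252% of UMIs in Idoxuridine and 0.0238% in DMSO. Their summed level was 252 CPM (7673 UMIs; interval 246 to 258) in Idoxuridine, against 238 CPM (9731 UMIs; 234 to 243) in DMSO. The log2 ratio of Idoxuridine over DMSO was 0.08 (0.04 to 0.12), but it was -0.13 with TMM scaling and -0.17 with median-of-ratios scaling, which shifted every gene by -0.21 and -0.25, so the direction of the family total is not fixed by these data. In the same libraries the 13 replication-independent histone genes summed to 9612 CPM in Idoxuridine and 11655 CPM in DMSO. A UMI counts 1 captured 3′ end whatever the transcript's length, so these levels were not divided by length.

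Linker histones and H2A made up most of what was captured, and H3 almost none of it. H1 genes held 56.0% of member UMIs in Idoxuridine and 62.3% in DMSO, and H2A genes 34.6% in Idoxuridine and 30.2% in DMSO. H4 stood at 15.1 CPM in Idoxuridine and 11.02 CPM in DMSO, H2B at 7.16 CPM in Idoxuridine and 4.85 CPM in DMSO, and H3 at 1.38 CPM in Idoxuridine and 1.81 CPM in DMSO. These class totals count captured ends and are not a measure of the amounts of histone mRNA or protein. The parts of poly(A) capture and of reads shared between near-identical copies in them were not tested.

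By class, the log2 ratio of Idoxuridine over DMSO was -0.07 (-0.13 to -0.02) for H1, 0.27 (0.20 to 0.35) for H2A, 0.56 (0.28 to 0.85) for H2B, -0.39 (-0.98 to 0.17) for H3 and 0.45 (0.26 to 0.64) for H4. With TMM scaling the same ratios were -0.28, 0.06, 0.35, -0.61 and 0.24. Scaling shifts all classes alike, so H1 lay below H2A, H2B and H4 under each, whereas the H2A ratio came close to 0 with TMM.

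**Figure D1:**
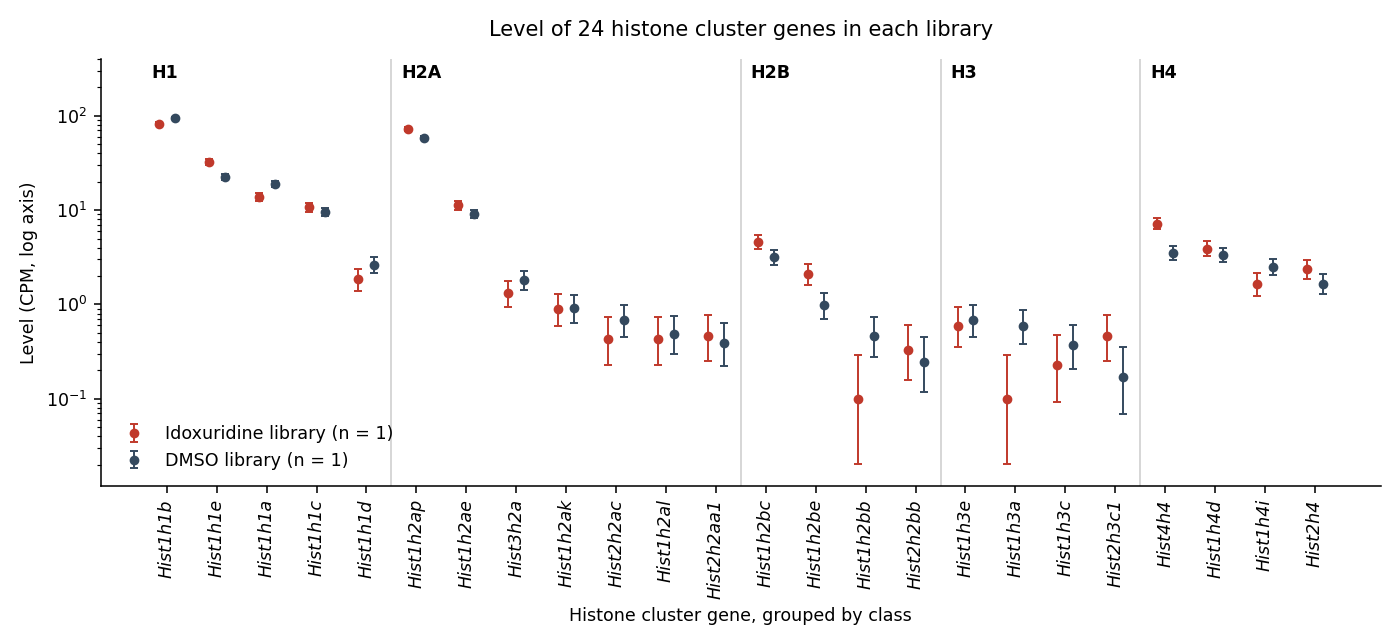
Level of each of the 24 histone cluster genes in CPM (log axis), grouped by class, with 1 point for the Idoxuridine library and 1 for the DMSO library; bars are exact Poisson 95% intervals and cover counting error only. Hist1h1b and Hist1h2ap stand above all other members in both libraries, between 58.7 and 95.1 CPM, and no H3 gene reaches 1 CPM.

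A gene was called higher or lower by size, where the log2 ratio was at least 0.5 in that direction and the Poisson intervals of the 2 levels were separate. By this rule 4 of 24 members were higher in Idoxuridine (Hist4h4, Hist1h2be, Hist1h1e and Hist1h2bc) and 1 was lower (Hist1h3a), whereas of all 14136 genes with at least 20 UMIs 26.6% were higher and 3.37% lower. At this minimum the share of members called higher lay below that of all genes. The split of higher against lower members turned with the scaling: with TMM 2 were higher and 5 lower, where 20% of all genes were higher and 9.56% lower. The median log2 ratio was 0.08 over the 24 members and 0.19 over all genes tested; for genes with at least 200 UMIs it was 0.30 over 9 members and 0.09 over all 10380. Of those 9 members 3 were higher and 0 lower, where 18.8% of all genes were higher and 4.2% lower, so the order of the shares turned with the minimum.

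How far members differed from other genes varied with their abundance. Among genes with 20 to 50 UMIs 43.7% were higher in Idoxuridine, against 0 of 9 members, and among those with 50 to 200 UMIs 51.2%, against 1 of 6 members. Between 200 and 1000 UMIs the share was 36.8%, with 2 of 5 members, and between 1000 and 10000 UMIs 11.4%, with 1 of 4 members. The bands count UMIs over both libraries, so a gene can enter a low band through its Idoxuridine counts alone. The median log2 ratio of all genes was 1.34 at 20 to 50 UMIs and 0.85 at 50 to 200, against 0.05 at 1000 to 10000. The low-count members held fewer calls than these genes, a difference that this filter can affect and that was not tested.

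**Figure D2:**
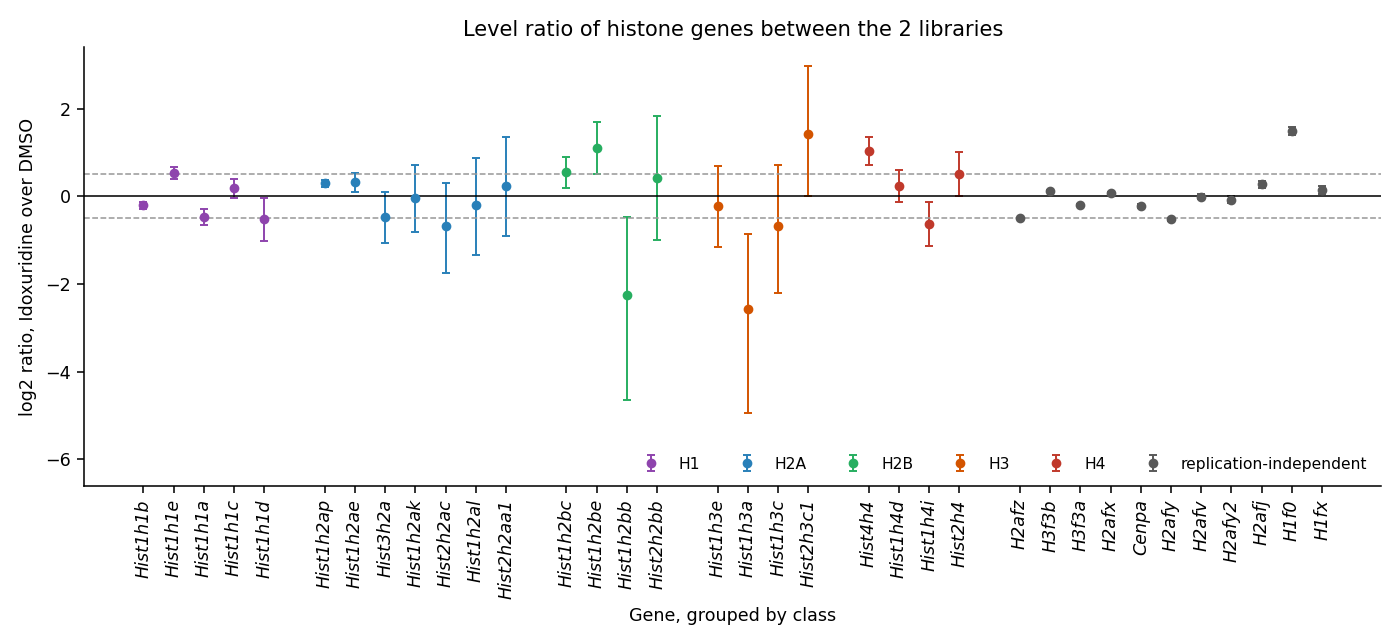
log2 ratio of Idoxuridine over DMSO for the 24 histone cluster genes by class and for 11 replication-independent histones, with exact conditional binomial 95% intervals; dashed lines mark a ratio of 0.5 in either direction. H1 genes fall on both sides of 0, Hist4h4 lies at 1.04, and H1f0, with a ratio of 1.49, stands highest of the genes drawn; TMM scaling lowers all points by 0.21 and takes Hist1h1c, H3f3b, H2afx and H1fx below 0.

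Among the linker histones, Hist1h1b (H1f5 in RefSeq) was the most captured member of all. It had 2511 UMIs, or 82.5 CPM (79.3 to 85.7), in Idoxuridine, against 3881 UMIs, or 95.1 CPM (92.1 to 98.1), in DMSO. The log2 ratio was -0.21 (-0.28 to -0.13), short of the size rule, and -0.42 with TMM. Hist1h1a (H1f1) was at 13.7 CPM (12.4 to 15.1) in Idoxuridine and 19.0 CPM (17.7 to 20.4) in DMSO, giving -0.47 as log2 ratio, which passed the size rule only after TMM scaling (-0.68). Both genes were thus lower in Idoxuridine, and neither was called on the main scale.

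Hist1h1e (H1f4) went the other way, at 32.4 CPM (30.4 to 34.5) in Idoxuridine and 22.4 CPM (20.96 to 23.9) in DMSO, with the log2 ratio at 0.53 (0.40 to 0.66), which was called higher on the main scale and not with TMM (0.32). Hist1h1c (H1f2) stood at 10.8 CPM in Idoxuridine and 9.48 CPM in DMSO, with an interval of the log2 ratio that took in 0 (0.19; -0.03 to 0.40). Hist1h1d was the least captured H1 gene, with 56 UMIs in Idoxuridine and 108 in DMSO, a log2 ratio of -0.52 (-1.02 to -0.05), which was called lower only after scaling with TMM (-0.74) or median of ratios. The H1 genes thus did not move as a block. Since Hist1h1b held so many UMIs, the ratio of the family total without it was 0.24 (0.19 to 0.30), and 0.03 with TMM.

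Hist1h2ap, an H2A gene of the Hist1 cluster, was the second most captured member. It had 2202 UMIs, or 72.3 CPM (69.3 to 75.4), in Idoxuridine and 2398 UMIs, or 58.7 CPM (56.4 to 61.1), in DMSO, a log2 ratio of 0.30 (0.22 to 0.38). Hist1h2ae had 11.3 CPM (10.1 to 12.6) in Idoxuridine and 9.06 CPM (8.16 to 10.0) in DMSO, a log2 ratio of 0.32. Both lay short of the size rule and close to 0 with TMM (0.09 and 0.11). The other 5 H2A genes had between 13 and 40 UMIs in Idoxuridine and between 16 and 74 in DMSO, and each had an interval of its log2 ratio that took in 0.

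Of the H2B genes, Hist1h2bc had 141 UMIs, or 4.63 CPM (3.90 to 5.46), in Idoxuridine and 129 UMIs, or 3.16 CPM (2.64 to 3.76), in DMSO, giving 0.55 as log2 ratio and 0.34 with TMM. Hist1h2be had 64 UMIs in Idoxuridine and 40 in DMSO, and its log2 ratio of 1.10 (0.51 to 1.71) was the highest of the 5 called members; it was named after its values were seen. It overlaps Hist1h1e, the only H1 gene called higher, and whether the calls of this pair depend on each other was not tested. Hist1h2bb had 3 UMIs in Idoxuridine and 19 in DMSO, and its Poisson intervals met, but it was called lower with TMM (-2.45).

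H3 mRNA was barely seen. Hist1h3e, the H3 gene with most UMIs, had 18 in Idoxuridine and 28 in DMSO. Hist1h3a had 3 UMIs in Idoxuridine and 24 in DMSO, a log2 ratio of -2.58 (-4.95 to -0.86), and was the only member called lower. It was named after its values were seen, and a count of 3 is at the floor used here for a level that can be told from 0. At a minimum of 50 UMIs no H3 gene was left, and 0 members were called lower.

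Among the H4 genes Hist4h4 was the only one called on the main scale. This gene, which lies alone on chromosome 6 and not in the Hist1 cluster, had 219 UMIs, or 7.19 CPM (6.27 to 8.21), in Idoxuridine, against 143 UMIs, or 3.50 CPM (2.95 to 4.13), in DMSO. Its log2 ratio was 1.04 (0.73 to 1.35), and it was called higher under TMM (0.83) and median-of-ratios scaling (0.79) as well. Hist1h4d, in the Hist1 cluster, was at 3.91 CPM in Idoxuridine and 3.33 CPM in DMSO, a log2 ratio of 0.23 (-0.14 to 0.60). Hist1h4i was at 1.64 CPM (1.22 to 2.16) in Idoxuridine and 2.52 CPM (2.06 to 3.06) in DMSO, a log2 ratio of -0.62 that was called lower only with TMM (-0.83) and with median-of-ratios scaling. Hist2h4 was at 2.36 CPM (1.85 to 2.98) in Idoxuridine and 1.67 CPM (1.29 to 2.11) in DMSO. Of the 4 genes 1 was thus called higher under each scaling run, and 1 lower under both alternatives.

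Set beside the annotated ends, the 12 members that run on past the stem-loop had a median log2 ratio of 0.27, with 8 of 12 above 0, 3 called higher and 0 lower, where 26.6% of all genes were higher, 3.37% lower and the median was 0.19. The 6 that end within 100 bases of it had a median of -0.68, with 2 of 6 above 0, 0 called higher and 1 lower, and the 6 without a complete stem-loop had a median of -0.12, with 1 called higher. The members that run on held 2311 of 7673 member UMIs in Idoxuridine and 2378 of 9731 in DMSO. Those that end within 100 bases held 2242 in Idoxuridine and 2500 in DMSO, and those without a complete stem-loop 3120 and 4853. Captured UMIs thus did not lie mainly in the members annotated to run on. The short-ended members other than Hist1h2ap had at most 28 UMIs in either library, so low counts and annotated ends cannot be told apart in this split. It was drawn up after values were seen and was not tested.

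In single cells, histone UMIs were few and unevenly spread. To compare shares, each cell was thinned at random to a common depth, 62.8% of the median UMIs of an Idoxuridine cell and 52.8% of that of a DMSO cell. This left 648 Idoxuridine cells and 764 DMSO cells, with 94 shallower Idoxuridine cells (12.7%) and 47 DMSO cells (5.80%) left out. At this depth 86.4% (83.5% to 89.0%) of Idoxuridine cells and 83.6% (80.8% to 86.2%) of DMSO cells held at least 1 member UMI. The median cell held 5 member UMIs in Idoxuridine and 4 in DMSO, and the highest 33 in Idoxuridine and 26 in DMSO. H1 UMIs were found in 75.5% of Idoxuridine and 74.2% of DMSO cells, H2A UMIs in 64.5% of Idoxuridine and 60.5% of DMSO cells, and H4 UMIs in 24.5% of Idoxuridine and 21.7% of DMSO cells. H2B UMIs were found in 13.1% of Idoxuridine and 10.9% of DMSO cells, and H3 UMIs in 4.17% of Idoxuridine and 3.80% of DMSO cells. The libraries hold no cell type that should lack histone mRNA, so the background from free RNA could not be measured.

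Hist1h1b was seen in 60.03% (56.1% to 63.8%) of Idoxuridine cells and 61.8% (58.2% to 65.2%) of DMSO cells. It was therefore at 0 in 39.97% of Idoxuridine cells and 38.2% of DMSO cells, where counting alone at the same mean would leave 12.7% in Idoxuridine (mean of 2.07 UMIs per cell) and 10.5% in DMSO (2.27). At the other end, 18 Idoxuridine cells and 21 DMSO cells held 10 or more Hist1h1b UMIs. The UMIs of this linker histone were thus spread over the cells of both libraries more unevenly than counting gives. A cell at 0 may still hold the mRNA, since capture is incomplete. Hist1h2ap was at 0 in 39.5% of Idoxuridine cells and 46.1% of DMSO cells, where counting alone would leave 18.9% in Idoxuridine and 27.5% in DMSO.

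The other members were seen in fewer cells than Hist1h1b and Hist1h2ap. Hist1h1e was at 0 in 55.9% of Idoxuridine cells, where counting alone would leave 44.5%, and in 66.6% of DMSO cells, against 59.9%. Hist1h1e was seen in 44.1% (40.3% to 48.1%) of Idoxuridine cells and 33.4% (30.0% to 36.8%) of DMSO cells, with intervals that did not meet. Hist1h1a was seen in 25% (21.7% to 28.5%) of Idoxuridine cells and 32.5% (29.1% to 35.9%) of DMSO cells. Hist4h4 was seen in 12.7% (10.2% to 15.5%) of Idoxuridine cells and 8.51% (6.63% to 10.7%) of DMSO cells, with intervals that met. The 5 most widely seen members after Hist1h2ap lay between 12.7% and 44.1% of Idoxuridine cells and between 8.51% and 33.4% of DMSO cells, and the remaining 17 reached at most 8.02% in Idoxuridine and 7.46% in DMSO.

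**Figure D3:**
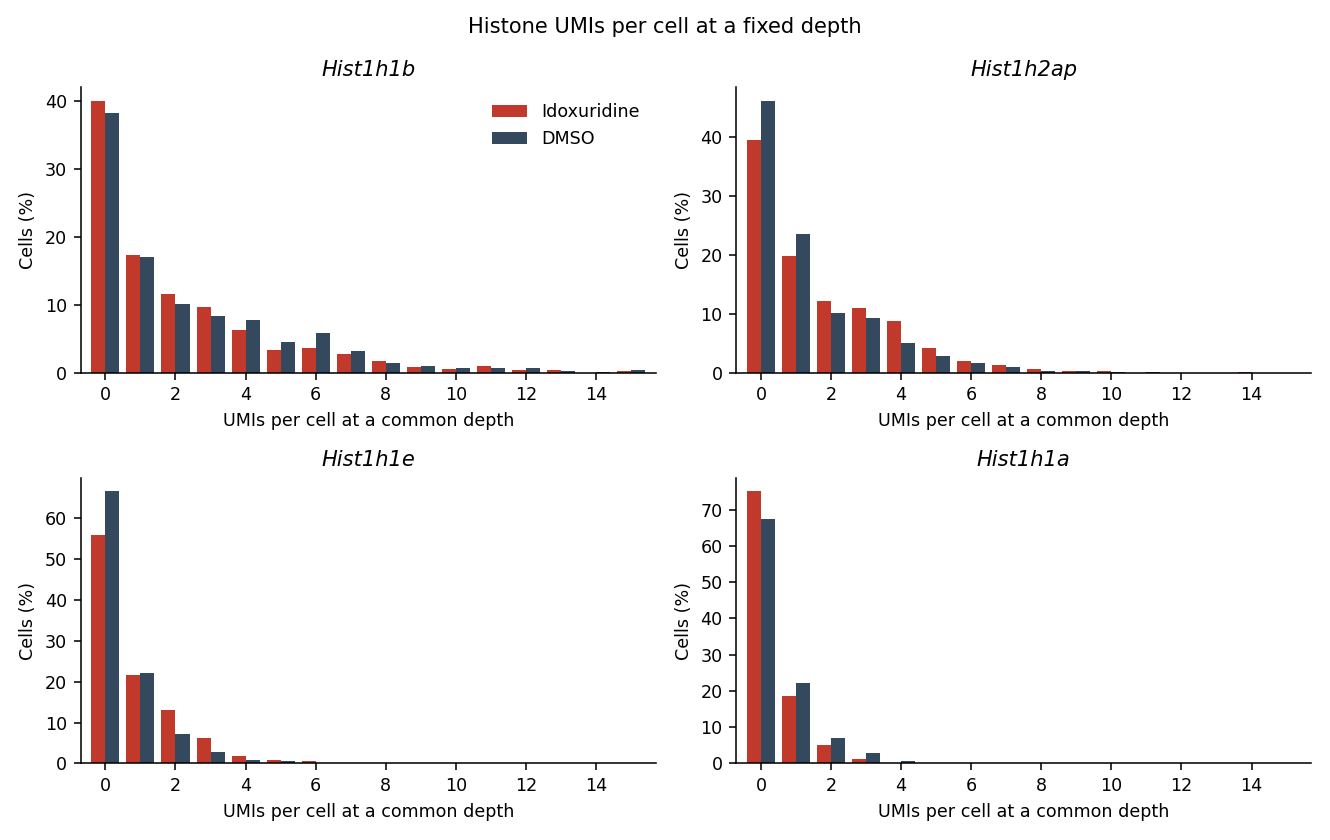
Share of cells (%) by the number of UMIs of Hist1h1b, Hist1h2ap, Hist1h1e and Hist1h1a per cell, after thinning all cells to a common depth, for 648 Idoxuridine cells and 764 DMSO cells. Hist1h1b is at 0 in 39.97% of Idoxuridine and 38.2% of DMSO cells and reaches 15 UMIs in both, and Hist1h1e shows fewer cells at 0 in Idoxuridine (55.9%) than in DMSO (66.6%).

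The Fano factor divides the variance of a gene's UMIs per cell by their mean and is 1 under counting error alone. It was computed at the same depth for the 4 members whose mean reached 0.25 UMI per cell in each library. Hist1h1b had 3.63 in Idoxuridine and 3.61 in DMSO, and Hist1h2ap 2.44 in Idoxuridine and 2.26 in DMSO. Hist1h1e had 1.66 in Idoxuridine and 1.59 in DMSO, and Hist1h1a 1.25 in Idoxuridine and 1.37 in DMSO. The log2 ratios of these Fano factors, in the order just given, were 0.01, 0.11, 0.06 and -0.13, with a median of 0.03, against a median of 0.08 over 7316 genes. None of the 4 passed a size of 0.25 log2, whereas 10.5% of all genes were higher in Idoxuridine by that size and 0.383% lower. Hist1h1b and Hist1h2ap were thus well above 1 in both libraries, and Hist1h1a had the lowest of the 4 values. By mean UMIs per cell the 4 genes stood in the same order, from 2.07 to 0.33 in Idoxuridine and from 2.27 to 0.47 in DMSO. A Fano factor above 1 can rise with the mean, so this order does not rank the genes by how unevenly they were spread.

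Hist1h1c, whose DMSO mean of 0.22 UMI per cell lay under that minimum, had a Fano factor of 2.12 in Idoxuridine and 1.04 in DMSO. It rested on 2 Idoxuridine cells with 12 and 9 UMIs, whereas the next cell held 3, and without the 2 cells with most Hist1h1c UMIs in each library the values were 1.31 in Idoxuridine and 1.02 in DMSO. Those 2 cells also held 16 and 10 UMIs of the gene before thinning. Hist4h4 showed the same dependence in the other library: its Fano factor was 1.55 in Idoxuridine and 1.52 in DMSO, and without the 2 top cells of each library 1.54 in Idoxuridine and 1.11 in DMSO.

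Because replication-dependent histones are made in S phase, members were set against lists of S phase and G2/M genes that hold no member. Of the thinned cells 357 (55.1%; 51.2% to 59.0%) were called S and 287 (44.3%) G2M in Idoxuridine, and 481 (63.0%; 59.4% to 66.4%) S and 280 (36.6%) G2M in DMSO. The Idoxuridine library thus had a lower share of thinned cells called S. The shallower cells missing from these shares made up 12.7% of Idoxuridine and 5.80% of DMSO cells. Only 4 Idoxuridine cells and 3 DMSO cells were called G1, so the log2 ratio of S over G1 rested on 10 histone UMIs in G1 cells in Idoxuridine (1.65; 0.77 to 2.71) and 5 in DMSO (2.26; 1.03 to 3.88) and was not used further. Within cells called S the members' level ratio of Idoxuridine over DMSO was 0.14 (0.08 to 0.19), and within cells called G2M 0.23 (0.15 to 0.31). Both were scaled to total UMIs, and the TMM shift of -0.21 is of like size, so their direction is not fixed either. With so few cells called G1, the cells called S or G2M may include G1 cells, which limits the shares and ratios given for them. The part of phase in the ratio over all cells was not tested.

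Cells with many S phase list UMIs held more member UMIs in sum in both libraries, though not in every histone class. In Idoxuridine the members summed to 345 CPM in the top tertile of cells by the S list (3 equal parts of a library's cells, in order of their list UMIs) and 210 CPM in the bottom tertile, a log2 ratio of 0.72 (0.64 to 0.80). In DMSO they summed to 310 CPM in the top tertile and 206 CPM in the bottom tertile, a log2 ratio of 0.59 (0.52 to 0.66). Without Hist1h1b the S list ratio was 0.58 (0.48 to 0.68) in Idoxuridine and 0.30 (0.21 to 0.39) in DMSO. By class it was 0.82 in Idoxuridine and 0.80 in DMSO for H1, and 0.70 and 0.30 for H2A. For H4 it was 0.23 (-0.11 to 0.57) in Idoxuridine and 0.04 (-0.30 to 0.39) in DMSO. H2B stood at 0.09 (-0.41 to 0.60) in Idoxuridine and 0.09 (-0.42 to 0.60) in DMSO. H3 stood at -0.08 (-1.26 to 1.07) in Idoxuridine and -1.31 (-2.37 to -0.34) in DMSO. By the G2/M list the order of the summed level was turned. The top tertile had 176 CPM and the bottom tertile 313 CPM in Idoxuridine (log2 ratio of -0.83; -0.92 to -0.74), and the top tertile 145 CPM and the bottom tertile 302 CPM in DMSO (-1.06; -1.14 to -0.98). Cells were ranked at fixed depth, but their UMIs before thinning differed between tertiles, with medians of 36408 in the top and 40732 in the bottom S tertile of Idoxuridine, and of 39681 in the top and 50129 in the bottom S tertile of DMSO.

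Genes with at least 20 UMIs over the top and bottom tertile of a library were taken as tested, that is, set against the size rule. Genes on the S and G2/M lists were left out of the shares of all genes. With the size rule, 5 of 14 tested members were higher in the top S tertile in Idoxuridine (Hist1h1b, Hist1h1a, Hist1h2ap, Hist1h2ae and Hist1h1e), against 1.46% of all 12404 genes tested, and 0 were lower, against 2.34%. In DMSO 2 of 16 were higher (Hist1h1b and Hist1h1a), against 2.44% of 11723 genes, and 2 lower (Hist1h4d and Hist3h2a), against 2.06%. In the top tertile by the G2/M list, 3 of 14 members were lower in Idoxuridine, against 1.84% of genes, and 7 of 15 in DMSO, against 2.26%. In that tertile 0 members were higher in Idoxuridine, against 3.33%, and 1, Hist3h2a, in DMSO, against 2.19%; Hist1h3e also passed the size rule in DMSO (3.66; 0.96 to 9.06), but on fewer UMIs than the minimum. These counts describe the cells of each library; whether the libraries differ in them was not tested.

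Of the 9 members with at least 200 UMIs, Hist1h1b had the highest S list ratio in both libraries. Its log2 ratio of top over bottom S tertile was 0.99 (0.85 to 1.14) in Idoxuridine and 1.03 (0.91 to 1.14) in DMSO, and by the G2/M list -1.13 in Idoxuridine and -1.40 in DMSO. Hist1h1a gave 0.83 (0.48 to 1.19) in Idoxuridine and 0.63 (0.37 to 0.88) in DMSO by the S list, and Hist1h2ap 0.71 (0.55 to 0.86) in Idoxuridine and 0.36 (0.21 to 0.50) in DMSO. These 3 genes led the 9 in Idoxuridine.

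Among these 9 members the lowest S list ratios were those of Hist1h2bc, Hist1h4d and Hist4h4 in Idoxuridine, at -0.20 (-0.85 to 0.43), -0.14 (-0.91 to 0.61) and 0.30 (-0.19 to 0.79). In DMSO Hist1h4d stood at -1.17 (-1.98 to -0.41), Hist1h1c at 0.20 (-0.16 to 0.57) and Hist1h1e at 0.31 (0.07 to 0.54), whereas Hist4h4 was at 0.55 (-0.07 to 1.18). Hist3h2a, named after its values were seen, was lower in the top S tertile in DMSO at -1.33 (-2.35 to -0.41) and stood at -0.19 (-1.62 to 1.18) in Idoxuridine.

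**Figure D4:**
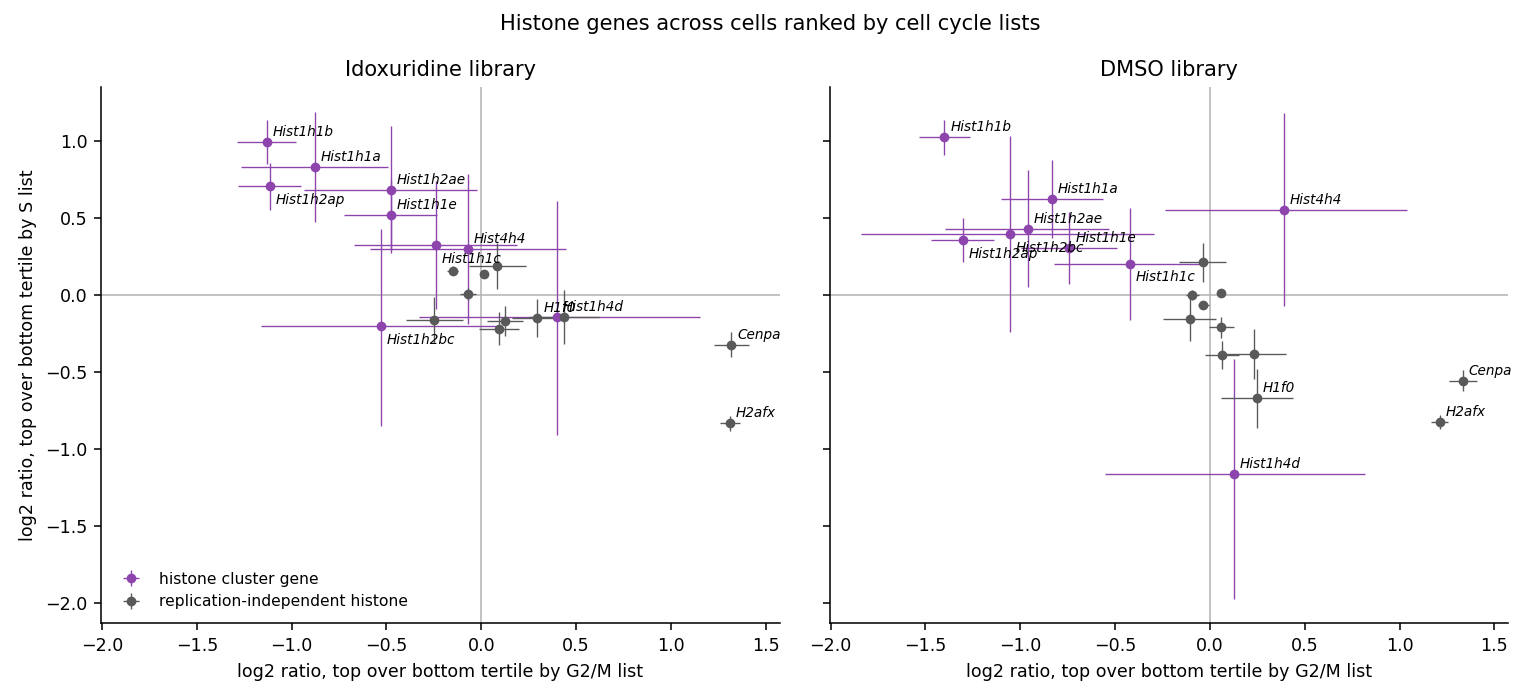
log2 ratio of the top over the bottom tertile of cells ranked by the S list (vertical) and by the G2/M list (horizontal), in the Idoxuridine library (left) and the DMSO library (right), for the 9 histone cluster genes with at least 200 UMIs and 11 replication-independent histones; bars are 95% counting intervals. Hist1h1b lies at the upper left in both libraries (0.99 and -1.13 in Idoxuridine, 1.03 and -1.40 in DMSO), and H2afx and Cenpa, of which Cenpa is on the G2/M list, lie at the lower right.

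Taking both lists at once separated the cells further. Cells in the high tertile by the S list and the low tertile by the G2/M list held 9.95 member UMIs on average in Idoxuridine (104 cells) and 8.38 in DMSO (138 cells). Cells low on both lists held 2.88 in Idoxuridine (68 cells) and 2.97 in DMSO (61 cells), and 39.7% of them had no member UMI in Idoxuridine and 29.5% in DMSO. Cells high on both lists held 3.81 in Idoxuridine, with 31 cells, and 1.71 in DMSO, with 21 cells. Summed member UMIs were therefore highest in cells rich in S list and poor in G2/M list UMIs, and they did not follow the S list in every group of cells. Within the bottom tertile by the G2/M list the log2 ratio of top over bottom S tertile was 1.36 (1.20 to 1.52) in Idoxuridine and 1.09 (0.95 to 1.23) in DMSO, and within the top tertile it was -0.27 (-0.49 to -0.05) in Idoxuridine and -1.04 (-1.40 to -0.69) in DMSO.

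**Figure D5:**
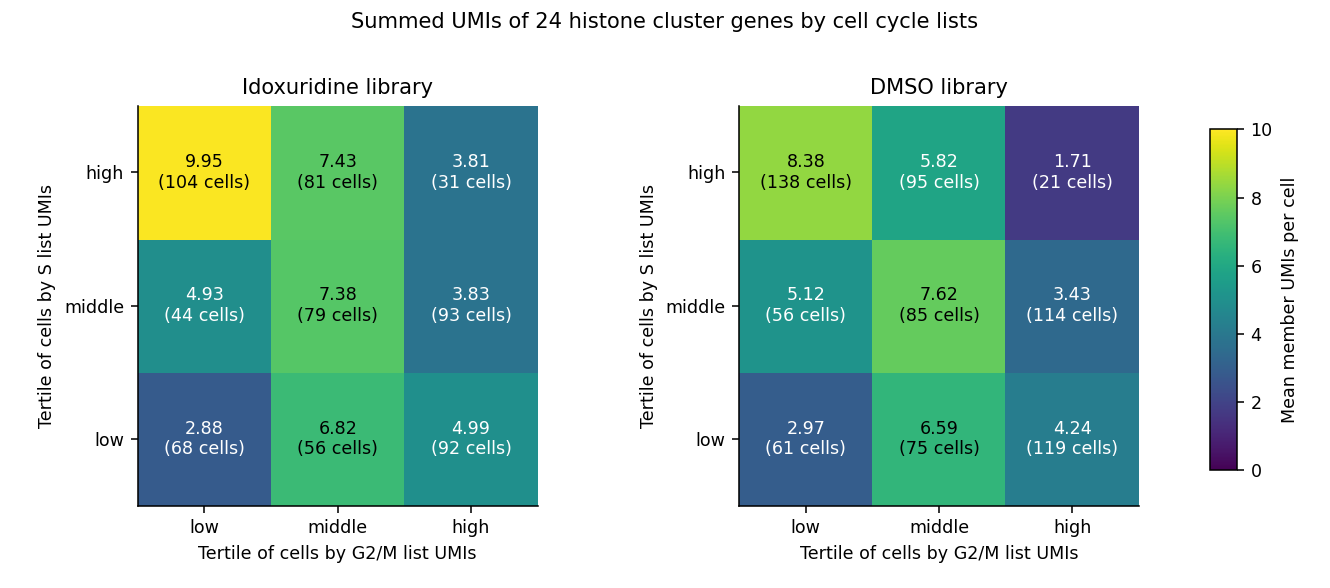
Mean summed UMIs of the 24 histone cluster genes per cell after thinning to a common depth, in 9 bins of cells by tertiles of the S list (vertical) and of the G2/M list (horizontal), with the number of cells in each bin, for the Idoxuridine library (left) and the DMSO library (right). The bin high on the S list and low on the G2/M list has the highest mean in both, 9.95 in Idoxuridine and 8.38 in DMSO, and the bin high on both lists in DMSO the lowest, 1.71.

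The abundant members also went together from cell to cell. Across 648 Idoxuridine and 764 DMSO cells at fixed depth, Pearson's r of Hist1h1b was 0.45 in Idoxuridine and 0.40 in DMSO with Hist1h2ap, 0.37 in Idoxuridine and 0.43 in DMSO with Hist1h1e, and 0.30 in Idoxuridine and 0.45 in DMSO with Hist1h1a. With Hist1h1c it was 0.04 in Idoxuridine and 0.15 in DMSO, and with Hist4h4 0.03 in Idoxuridine and 0.02 in DMSO. Cells of 1 library share that library and its free RNA, and sparse counts hold such values down, so they are given as descriptions. Hist1h1b stood at 0.31 in Idoxuridine and 0.29 in DMSO with the S list, and at -0.10 in Idoxuridine and -0.15 in DMSO with the G2/M list. Such values were not limited to cluster genes. With H3f3b, a replication-independent histone, r was 0.20 in Idoxuridine and 0.32 in DMSO for Hist1h1b, and 0.26 and 0.30 for Hist1h2ap. Hist1h1b stood lower with H3f3a (0.10 in Idoxuridine and 0.09 in DMSO) and with H2afx (-0.06 and -0.13).

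Replication-independent histones were described by the same rules. Of the 11 with at least 20 UMIs, 1 was higher in Idoxuridine and 1 lower, and with TMM 1 was higher and 2 lower. All 11 had at least 200 UMIs, where 18.8% of all genes were higher and 4.2% lower, and with TMM 12.1% were higher and 12.2% lower. H1f0, a linker histone known for cells that stop dividing or differentiate, was at 112 CPM (3411 UMIs) in Idoxuridine and 39.9 CPM (1628 UMIs) in DMSO, a log2 ratio of 1.49 (1.40 to 1.58) and 1.28 with TMM. At fixed depth it was seen in 75.8% of Idoxuridine and 49.2% of DMSO cells, with Fano factors of 3.29 in Idoxuridine and 1.73 in DMSO. H2afy, which encodes macroH2A, was at 202 CPM in Idoxuridine and 292 CPM in DMSO (log2 ratio of -0.53; -0.57 to -0.48). H1foo, a linker histone of oocytes, had 9 UMIs in Idoxuridine and 0 in DMSO, where the floor of 3 UMIs allows a level of up to 0.0735 CPM.

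Of the most abundant, H2afz was at 4969 CPM in Idoxuridine and 7022 CPM in DMSO (log2 ratio of -0.50, just short of the size rule, and called lower with TMM at -0.71), H3f3b at 1908 CPM in Idoxuridine and 1749 CPM in DMSO (0.13, and below 0 with TMM), and H3f3a at 1008 CPM in Idoxuridine and 1147 CPM in DMSO (-0.19). H2afx, which holds the stem-loop like the cluster genes, was at 778 CPM in Idoxuridine and 742 CPM in DMSO (0.07, and -0.14 with TMM). Unlike Hist1h1b, H2afx was lower in the top S tertile, with log2 ratios of -0.83 in both libraries, and higher in the top G2/M tertile, at 1.31 in Idoxuridine and 1.21 in DMSO.

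Most genes that process histone mRNA were not called. Of 21 genes for histone mRNA processing, 2 were higher in Idoxuridine, Zfp473 (0.66; 12.4 CPM in Idoxuridine and 7.89 CPM in DMSO) and Zcchc6 (0.57; 23.7 CPM in Idoxuridine and 16.0 CPM in DMSO), and 0 were lower. Zfp473 encodes a zinc finger protein of the histone pre-mRNA processing machinery, and Zcchc6 an enzyme that adds uridines to RNA ends. Neither passed the size rule with TMM (0.45 and 0.36), which gave 0 higher and 1 lower, Ncbp2 (-0.54), a subunit of the nuclear cap-binding complex. With median-of-ratios scaling 3 of 21 were lower, where 14.9% of all genes with at least 200 UMIs were lower. All 21 had at least 200 UMIs, so for the main scale and TMM the shares of all genes just given apply. Slbp, the stem-loop binding protein, was at 407 CPM in Idoxuridine and 368 CPM in DMSO (0.15), and Srrt at 200.0 CPM in Idoxuridine and 213 CPM in DMSO (-0.09). Eri1, the exonuclease that trims the stem-loop end, was at 136 CPM in Idoxuridine and 140.4 CPM in DMSO (-0.04), and Casp8ap2 at 130.3 CPM in Idoxuridine and 122 CPM in DMSO (0.09).

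Of 24 histone chaperone genes, all with at least 200 UMIs, 0 were higher and 0 lower by the size rule. With TMM 1 was lower, Asf1a (-0.66; 83.5 CPM in Idoxuridine and 114 CPM in DMSO), a chaperone of H3 and H4. Npm1, which encodes nucleophosmin, was at 4292 CPM in Idoxuridine and 4683 CPM in DMSO (-0.13), and Nap1l1 at 715 CPM in Idoxuridine and 653 CPM in DMSO (0.13). Hat1, the acetyltransferase of new H4, was at 687 CPM in Idoxuridine and 649 CPM in DMSO (0.08), and Rbbp7, its partner, at 555 CPM in Idoxuridine and 495 CPM in DMSO (0.17). Slbp, Nasp, Casp8ap2 and Chaf1b are on the S list itself, so their profiles by that list say nothing here; leaving these 4 off the list changed neither count of members called higher in the top S tertile.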

How the data were processed

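The authors deposited raw UMI counts, whole numbers for each gene in each cell, from 10x Genomics 3′ V2 libraries, per the labels. Per the submitters' processing notes, Cell Ranger 2, Seurat and the build mm10 were used, in roles not stated there. How cells were selected, the annotation release and the read length are not given in the sources used here, so all deposited barcodes were taken as cells. No doublet caller was run; cells above 2 times their library's median UMIs (46 Idoxuridine, 65 DMSO) were left out as an alternative.

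UMIs were summed per library and scaled to 1000000 (CPM), with exact Poisson, conditional binomial and Clopper-Pearson 95% intervals. In ratios a count of 0 was set to a floor of 3 UMIs, whereas the bounds of their intervals used no floor. Thinning used 1 seeded draw for shares, phases and correlations and its exact expectation for Fano factors (Python 3.11.15, scanpy 1.11.5, scipy 1.17.1). TMM factors came from edgeR 4.0.16. Level ratios with their calls and the Fano factor were tested on simulated data. Fano factors from a drawn thinning were set against the exact expectation in DMSO cells. The other steps were not tested in this way.

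The 24 members and 7 gene lists were chosen with earlier results of these data known; 1 of 172 listed genes was not found. Named with full values were the 10 members with most UMIs, each class's leading member, those with at least 200 UMIs, and extremes of Fano and S list ratios. The S list tertiles replaced the planned S over G1 ratio, after too few cells were called G1. Among list genes, those called and up to 4 more by UMIs were named.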

Additional observations from a re-analysis of the deposited data

How the results depend on the processing

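No paired analysis was possible because each group is 1 library. The family's log2 level ratio of 0.08 was -0.13 with TMM and -0.17 with median-of-ratios scaling, the members' median ratio -0.13 and -0.17, and both scalings gave 2 members higher and 5 lower, where 20% of all genes were higher and 9.56% lower with TMM, and 18.9% higher and 11.7% lower with median of ratios. That median was -0.092 with no minimum, 0.23 at 50 UMIs and 0.30 at 200 UMIs, where 0 members were called lower, and -0.063 without cells above 2 times the median, where 2 were. After thinning the family ratio was 0.13 with 2 members higher. Within cells called S it was 0.14, with a members' median of 0.27 and 0 lower, within G2M cells 0.23, and within G1 cells 0.74 (-0.94 to 2.64) on 10 UMIs in Idoxuridine and 5 in DMSO. Without Hist1h1b it was 0.24 (median 0.19), and without Hist1h2ap too 0.20; this was chosen after seeing the data, as were the S over G2M ratios and the S tertiles within G2/M tertiles. The S over G1 ratios (1.65 in Idoxuridine and 2.26 in DMSO) became 0.65 in Idoxuridine and 0.74 in DMSO as S over G2M, 0.72 in Idoxuridine and 0.59 in DMSO by S tertiles, and turned to -0.83 in Idoxuridine and -1.06 in DMSO by G2/M tertiles; the cause was not tested. The S tertile ratio in Idoxuridine was 0.90 without cells above 2 times the median. Within the bottom, middle and top G2/M tertile it was 1.36, 0.22 and -0.27 in Idoxuridine and 1.09, -0.049 and -1.04 in DMSO; the cause was not tested. Fano settings moved the 4 members' median ratio of 0.03 to between 0.012 and 0.085 under the alternatives run; that of Hist1h1b was -0.30 log2 without thinning. Of 345 values under alternatives, 261 stayed within the limits set, 57 moved and 5 turned direction. The main results were less stable than this total: of their values 46 stayed, 33 moved and 5 turned direction, whereas 215 of the values that stayed belonged to lesser results. Depth limits the 15 members under 200 UMIs, whose single ratios have wide counting intervals.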
